A study of Homo sapiens with 4 samples.

Results

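The genes described here encode the main components of elastic fibres: elastin (*ELN*), the fibrillins (*FBN1*, *FBN2*), the fibulins (*FBLN1*, *FBLN2*, *FBLN5*, *EFEMP1*, *EFEMP2*) and the microfibril-associated glycoproteins (*MFAP2*, *MFAP5*). They are 10 of the 63677 genes in the count table. The choice was made by symbol, for what their proteins do, with earlier results of these data known. The study had already listed *FBLN5* among its downregulated matrix genes. The cells were those of the established human line LX-2. It derives from hepatic stellate cells, the liver cells that turn into matrix-producing myofibroblasts in fibrosis. Both groups received a small RNA duplex at 20 nmol/L, either a mimic of the human microRNA miR-6133-5p or a negative control mimic called miControl. Both groups then received rhTGF-β1, the recombinant form of the fibrogenic cytokine TGF-β1, at 5 ng/mL on the day after transfection, and RNA was taken 24 h later. There were 2 libraries per group, all from 1 line, and no library without rhTGF-β1 was analysed here. The sources do not say that replicates were separate cultures, so p-values measure the spread between these libraries, which may be technical.

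Elastic fibres give tissues recoil. Fibrillins polymerise into microfibrils, microfibril-associated glycoproteins decorate them, and fibulins guide tropoelastin onto this scaffold, where lysyl oxidases cross-link it. Microfibrils also hold latent TGF-β through the latent TGF-β binding proteins, and in liver, elastic fibres build up in the septa of advanced fibrosis.

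After miR-6133-5p, *FBLN5* fell and no other member passed both thresholds of the call, an adjusted p below 0.01 and a log2 fold change beyond 0.8 in either direction. *EFEMP1*, another fibulin, was 1.49-fold higher at an adjusted p of 0.00137 (edgeR), short of that size. Both fibrillins had lower scaled counts in both miR-6133-5p libraries than in either miControl library, 1.38-fold and 1.40-fold lower in the fit, with adjusted p-values of 0.0173 and 0.0197 (edgeR). *ELN* and *MFAP5* had no count in any library.

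The sequence upstream of the start site is shown for 4 of the members on which the results below turn. What these genes hold there can then be read beside their levels. Each run is the 250 bases before an annotated start, 5′ to 3′ on the strand of the gene, from the RefSeq promoter table on GRCh38.p14. That table matched 7 of the 10 members, with 10 start sites, and held no window for *ELN*, *EFEMP1* or *MFAP5*. *EFEMP1*, whose higher level is described below, could therefore not be shown. Capitals mark every match, on either strand, to the core letters of 4 factors: TGANTCA (AP-1), CAGACA (SMAD), CATTCC (TEAD) and GGGCGG (SP1). On the other strand the SMAD letters read TGTCTG, the TEAD letters GGAATG and the SP1 letters CCGCCC, and neighbouring matches can share letters.
*FBLN5*, the first of its start sites, chr14:91947695-91947944, minus strand: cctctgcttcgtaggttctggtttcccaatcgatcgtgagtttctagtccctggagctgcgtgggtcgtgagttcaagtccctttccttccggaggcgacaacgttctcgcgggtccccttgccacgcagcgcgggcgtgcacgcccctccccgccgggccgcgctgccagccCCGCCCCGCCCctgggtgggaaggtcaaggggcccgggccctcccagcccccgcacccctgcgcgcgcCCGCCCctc
*FBN1*, chr15:48644971-48645220, minus strand: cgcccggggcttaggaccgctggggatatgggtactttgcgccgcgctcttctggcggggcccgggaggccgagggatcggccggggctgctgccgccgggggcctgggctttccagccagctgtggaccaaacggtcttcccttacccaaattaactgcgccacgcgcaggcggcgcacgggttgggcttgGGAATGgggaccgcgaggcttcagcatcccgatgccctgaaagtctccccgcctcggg
*FBN2*, chr5:128538246-128538495, minus strand: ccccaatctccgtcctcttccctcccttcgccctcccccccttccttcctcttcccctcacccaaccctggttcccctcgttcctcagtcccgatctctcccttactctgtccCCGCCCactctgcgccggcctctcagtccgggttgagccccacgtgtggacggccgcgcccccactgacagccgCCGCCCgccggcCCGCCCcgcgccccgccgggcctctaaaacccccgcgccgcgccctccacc
*MFAP2*, the first of its start sites, chr1:16981584-16981833, minus strand: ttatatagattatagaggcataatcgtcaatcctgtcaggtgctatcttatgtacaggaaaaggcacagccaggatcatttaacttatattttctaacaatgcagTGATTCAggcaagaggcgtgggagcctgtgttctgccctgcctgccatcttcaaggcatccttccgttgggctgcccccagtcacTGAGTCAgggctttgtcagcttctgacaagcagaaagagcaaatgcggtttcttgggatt

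The windows differed in what they held. The *FBLN5* window had 3 SP1 matches, which began 77, 72 and 9 bases before the start, and the *FBN2* window had 3, at 137, 63 and 51. The *FBN1* window had no SP1 match and 1 TEAD match, 58 bases before the start. The *MFAP2* window had 2 AP-1 matches, at 145 and 60, and was the poorest of the 4 in G and C, at 46.8% against 69.6% to 72.8% in the other 3. The second start site of *MFAP2* differed, with no AP-1 match, 2 SP1 matches and 76.4% G and C. The second start site of *FBLN5* had 1 SP1 match and 48.8% G and C. These contrasts between genes therefore depend on the start site shown. Over all 10 start sites of members, 7 windows held SP1 letters, 1 held AP-1, 1 held TEAD and 0 held SMAD. Of 35116 windows in the table, 42.6% held SP1 letters, 6.57% AP-1, 11.9% TEAD and 13.6% SMAD. The median over all windows was 58% G and C, and member windows ran from 46.8% to 81.6%. The SP1 letters are all G and C, and the part of base content in these counts was not tested. A match describes these letters and does not show that a factor binds there.

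The counts came from 4 libraries of 51862006 to 93811213 counts on genes, and 3 counts, the floor used here, corresponded to 0.0302 to 0.0610 CPM. CPM is the count scaled to 1000000 counts per library, with library totals adjusted by the trimmed mean of M values (TMM), and floors cover counting error only. The spread between replicates exceeded counting error in both groups, at a chi-square of 14.3 per degree of freedom for miControl and 50.2 for miR-6133-5p. Of 12 stellate or mesenchymal markers, 8 were at 1 CPM or more in every library, among them *COL1A1*, *PDGFRB* and *VIM*. *DES* and *LRAT*, which mark desmin-positive or quiescent stellate cells, had at most 10 counts. The markers of this list summed to 9116 and 8546 CPM with miControl and to 6352 and 5729 CPM with miR-6133-5p. Most of that difference was *COL1A1*, with mean levels of 2916 and 1063 CPM, and *SPARC*, with 3637 and 2749 CPM. *ACTA2*, which the study used as a marker of stellate cell activation, was called lower at a log2 fold change of -1.95 (adjusted p = 2.1e-07, edgeR). *COL1A2* was also called lower, at -1.11 (adjusted p = 4.34e-06, edgeR), and *COL3A1* was at -0.44, short of a call. *VIM*, *PDGFRB* and *HAND2* were at log2 fold changes of -0.02, 0.04 and -0.07, and *TIMP1* was at 0.42. Of 6 hepatocyte markers, 5 had at most 10 counts in every library, and *TTR* had none. The 4 endothelial markers matched summed to 3.33 to 3.84 CPM with miControl and 3.82 to 4.25 CPM with miR-6133-5p. The 5 macrophage or leukocyte markers summed to 9.06 to 11.02 CPM and 9.06 to 9.22 CPM in the same order, with *CD163* at 0. The 4 smooth muscle markers summed to 243 to 269 CPM and 256 to 279 CPM, most of it *SMTN*, while *ACTG2* fell from 8.78 and 8.33 CPM to 3.82 and 2.06 CPM. The 5 cholangiocyte or epithelial markers summed to 83.8 to 85.3 CPM and 36.8 to 39.9 CPM, most of it *SOX9*, which fell. *KRT7*, of the same list, went the other way, from 3.62 and 4.44 CPM to 6.60 and 7.08 CPM (log2 fold change 0.76, short of a call), and *EPCAM* had at most 4 counts. The part that these shifts have in the results was not tested. In RNA from whole cultures, fewer expressing cells and less RNA per cell cannot be told apart.

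Of the 10 members, 8 passed the filter on low counts and were tested among 18252 genes. Of these, 1 was called lower, where 5.54% of all tested genes were, and 0 were called higher, where 2.90% were. With library totals alone, which moved the median log2 fold change of all genes from 0.03 to 0.19, 1 member was called lower and 1 higher, and the calls over all genes were 710 lower and 977 higher in place of 1011 and 529. DESeq2 called 0 members higher, and gave *MFAP2* no adjusted p. At any size of change, 2 of the 8 had an adjusted p below 0.01, against 18.8% of all tested genes (edgeR). Unadjusted p-values below 0.05 (edgeR) were found for 5 members, 2 of them higher. The share of all tested genes at that level was not computed, so this count has no background to be read against. The groups did not overlap for 6 members, 3 lower and 3 higher, where 64.4% of all tested genes did not overlap. *MFAP2* is among these 3 higher members and the 2 higher ones above. It passed the filter only through its miR-6133-5p libraries, so it adds no support to these counts or to the median below. The median log2 fold change over the 8 was 0.11, beside 0.03 over all tested genes, and single members ran from -1.82 to 3.26. That median was -0.19 over the 6 members with at least 10 counts in every library and 0.0061 without replicate 2 of miControl, so its direction does not hold.

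**Figure D1:**
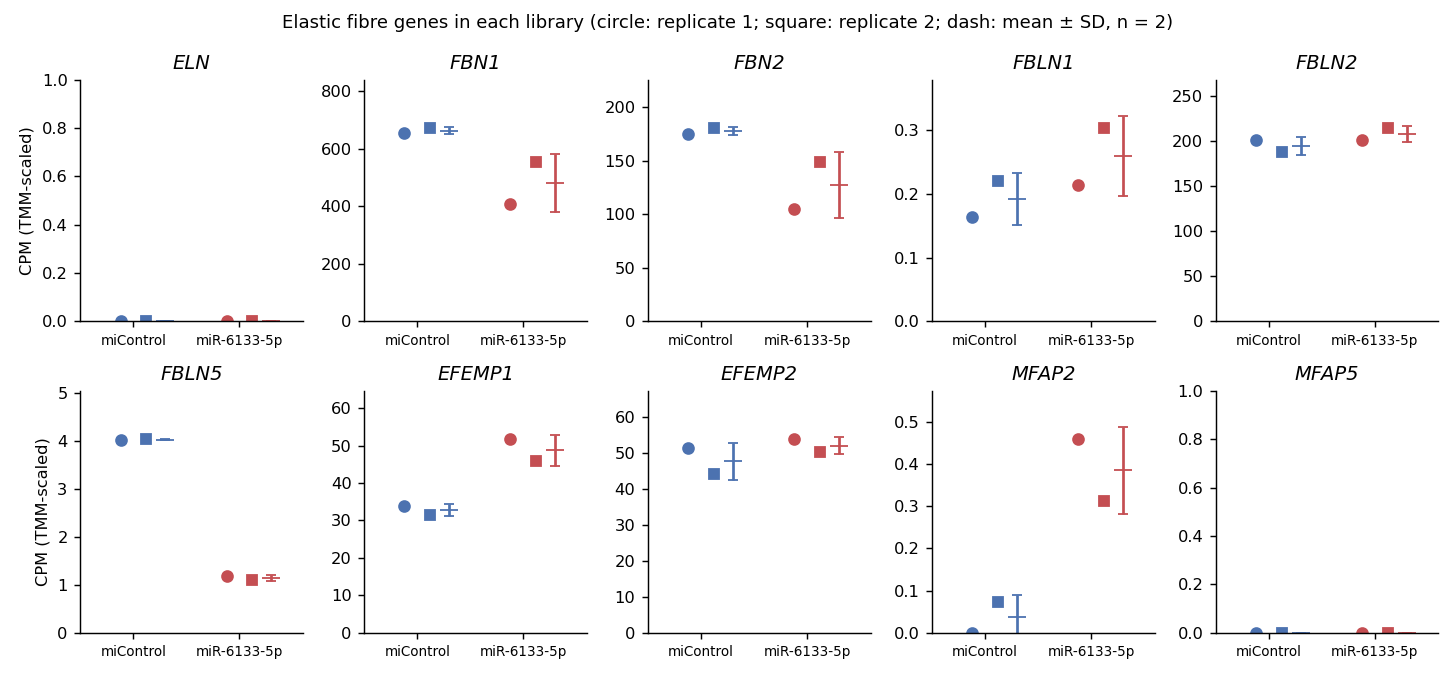
Level of each elastic fibre gene in every library, in TMM-scaled CPM on linear axes that start at 0, with circles for replicate 1, squares for replicate 2 and dashes with bars for the mean ± SD (n = 2). *FBLN5* stands at 4.03 and 4.04 CPM with miControl and 1.19 and 1.10 CPM with miR-6133-5p, and *ELN* and *MFAP5* lie at 0 throughout.

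*ELN* (ENSG00000049540, chr7:73442119-73484237 on GRCh37, plus strand) encodes tropoelastin, the soluble precursor of the elastin core. It had 0 counts in all 4 libraries, which allows at most 0.0610 CPM in the shallowest library and 0.0302 CPM in the deepest. Its level was therefore not detectable at this depth in either group. The next protein-coding gene along the chromosome, *LIMK1*, had 4471 and 4546 counts with miControl and 6362 and 9478 counts with miR-6133-5p, so reads on the neighbouring gene were counted.

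*FBN1* (ENSG00000166147) encodes fibrillin-1, the backbone of microfibrils. The gene spans chr15:48700510-48937918 on the minus strand, and its reference transcript has 66 exons and 11609 bases. It had 32229 and 36654 counts with miControl, or 655 and 673 CPM, and 26804 and 54948 counts with miR-6133-5p, or 410 and 554 CPM. Each miR-6133-5p library was below the lowest miControl library, but they lay far from each other. The means were 664 ± 12.3 CPM and 482 ± 102 CPM (SD, n = 2), and the log2 fold change was -0.46 (SE 0.131, adjusted p = 0.0173, edgeR), which is no call. It was -0.28 without replicate 1 of miR-6133-5p and -0.71 without replicate 2, so the library left out moved it by over 1.5 times.

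*FBN2* (ENSG00000138829, chr5:127593601-127994878, minus strand, 10927 bases) encodes fibrillin-2, the related protein best known from developing tissue. Its levels were 175 and 180 CPM with miControl and 105 and 149 CPM with miR-6133-5p. The order of the libraries was that of *FBN1*, with replicate 1 of miR-6133-5p lowest. The means were 177 ± 3.96 CPM and 127 ± 30.9 CPM (SD, n = 2), and the log2 fold change was -0.48 (SE 0.141, adjusted p = 0.0197, edgeR). It was -0.27 without replicate 1 of miR-6133-5p and -0.77 without replicate 2.

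The balance of the fibrillins does not depend on how libraries are scaled. There were 0.267 and 0.268 counts of *FBN2* per count of *FBN1* with miControl and 0.257 and 0.269 with miR-6133-5p. The ratio of replicate 2 of miR-6133-5p was above both miControl ratios and that of replicate 1 was below both, so the groups overlapped. The log2 ratio differed by -0.03 between the groups, smaller than its SD of 0.05 between the miR-6133-5p libraries (exact permutation test, two-sided, p = 1, where 2 libraries against 2 allow no p below 0.33).

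Fibrillin transcripts are among the longest measured, and the distance between the miR-6133-5p replicates went with length across all genes. Replicate 2 exceeded replicate 1 by 0.44 on the log2 CPM scale for *FBN1* and by 0.50 for *FBN2*. For the 1232 tested genes with reference transcripts over 8 kb, the median of that difference was 0.25, and for the 3394 genes of 1 to 2 kb it was -0.12. Between the miControl replicates the same medians were 0.07 and -0.04. Spearman's rho of length with the replicate difference over 17285 genes, which are not independent replicates and share these libraries, was 0.31 for miR-6133-5p and 0.15 for miControl. Medians of the log2 fold change between the groups were -0.10 over 8 kb and 0.11 at 1 to 2 kb, so the fibrillins, at -0.46 and -0.48, lay below the median of genes of their length. With a length term in the fit, added after the data were seen, *FBN1* was at -0.33 (adjusted p = 0.00717) and *FBN2* at -0.36 (adjusted p = 0.00923, edgeR), again short of 0.8. With library totals alone they were at -0.30 and -0.32 (adjusted p = 0.091 and 0.0917, edgeR). DESeq2 put them at -0.47 and -0.49 (adjusted p = 0.00324 and 0.00443, DESeq2). The adjusted p of the fibrillins thus lay on both sides of 0.01, depending on the processing.

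**Figure D2:**
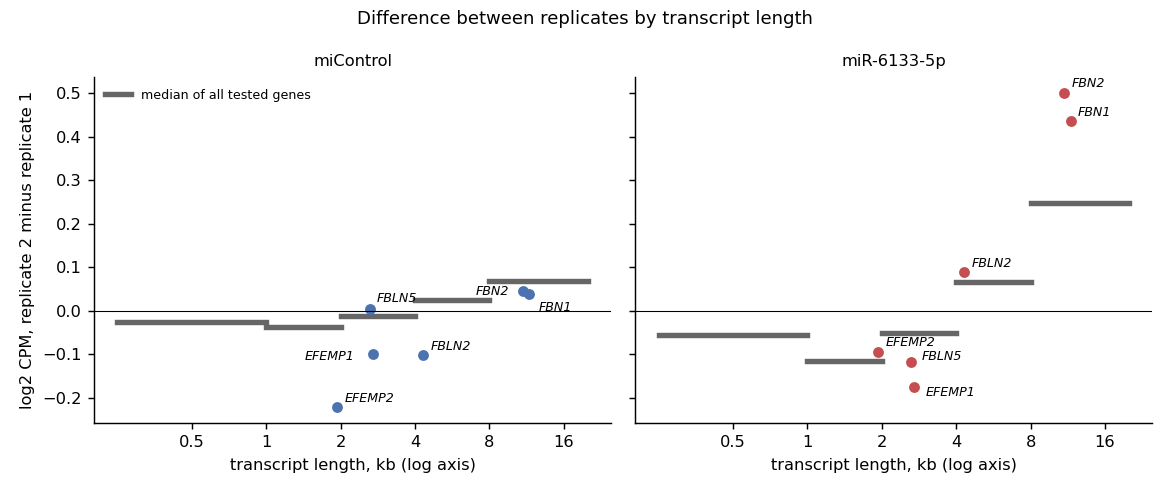
Difference in log2 CPM between replicate 2 and replicate 1 against transcript length in kb on a log axis, for miControl (left) and miR-6133-5p (right), with points for 6 members and grey bars for the median of all tested genes in each length class. *FBN1* and *FBN2* lie at 0.44 and 0.50 between the miR-6133-5p replicates and close to 0 between the miControl replicates, and *FBLN1* and *MFAP2* are left out for their low counts.

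*FBLN5* (ENSG00000140092, chr14:92335755-92414331, minus strand, 2625 bases in 11 exons) encodes fibulin-5, which binds tropoelastin, *LOXL1* and cell-surface integrins and is needed for elastic fibre assembly. It had 198 and 220 counts with miControl and 78 and 109 counts with miR-6133-5p, although the deeper libraries were those of miR-6133-5p. Replicates lay close together in both groups, at 4.03 and 4.04 CPM against 1.19 and 1.10 CPM, and the groups were far apart. The level was 3.52-fold lower with miR-6133-5p (log2 fold change -1.82, SE 0.213, adjusted p = 3.1e-05, edgeR). Leaving out each library in turn kept the log2 fold change between -1.89 and -1.77, and *FBLN5* was called lower in each of the 14 alternatives. The alternative at an adjusted p of 0.05 is the same fit at a looser threshold, so it could not lose this call. Its exons overlapped no exon of another gene in the annotation.

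*EFEMP1* (ENSG00000115380, chr2:56093102-56151274, minus strand, 2708 bases) encodes fibulin-3, a short fibulin like fibulin-5 that is found in basement membranes and the eye. Its levels were 33.8 and 31.5 CPM with miControl and 51.6 and 45.7 CPM with miR-6133-5p. Both miR-6133-5p libraries lay above both miControl libraries, by more than the distance between replicates. The log2 fold change was 0.58 (SE 0.109, adjusted p = 0.00137, edgeR). Its range was 0.47 to 0.65 with 1 library left out. The adjusted p was 0.028 without replicate 1 of miControl and 0.0498 without replicate 2 (edgeR).

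*EFEMP2* (ENSG00000172638, chr11:65633912-65641063, minus strand, 1934 bases) encodes fibulin-4, which brings lysyl oxidase to tropoelastin. It stood at 51.5 and 44.1 CPM with miControl and at 53.9 and 50.5 CPM with miR-6133-5p. The groups overlapped, since replicate 1 of miControl lay between the miR-6133-5p libraries. The log2 fold change was 0.13 (SE 0.110, adjusted p = 0.43, edgeR), and it was -0.01 without replicate 2 of miControl. The short fibulins thus had different values in the same libraries: there were 0.657 and 0.714 counts of *EFEMP1* per count of *EFEMP2* with miControl, and 0.958 and 0.906 with miR-6133-5p. For *FBLN5* per count of *EFEMP1*, the values were 0.119 and 0.128 with miControl and 0.0231 and 0.0240 with miR-6133-5p. These last ratios were chosen after the values were seen and are given without a test.

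*FBLN2* (ENSG00000163520, chr3:13590625-13679922, plus strand, 4306 bases) encodes fibulin-2, a long fibulin of basement membranes and elastic tissue. Its levels were 201 and 188 CPM with miControl and 202 and 215 CPM with miR-6133-5p. The groups just failed to overlap, and the log2 fold change was 0.10 (SE 0.103, adjusted p = 0.525, edgeR). It was 0.02 without replicate 2 of miControl and 0.04 without replicate 2 of miR-6133-5p. *FBLN1* (ENSG00000077942, chr22:45898118-45997015, plus strand) encodes fibulin-1, the other long fibulin. It was close to the floor, with 8 and 12 counts under miControl and 14 and 30 under miR-6133-5p, and its groups overlapped in CPM (log2 fold change 0.44, SE 0.572, adjusted p = 0.619, edgeR). Its log2 fold change was 0.23 without replicate 1 of miControl and 0.14 without replicate 2 of miR-6133-5p.

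*MFAP2* (ENSG00000117122, chr1:17300997-17307127, minus strand, 1045 bases) encodes the microfibril-associated glycoprotein MAGP-1, which binds fibrillins and tropoelastin. It had 0 and 4 counts with miControl and 30 and 31 counts with miR-6133-5p, or 0 and 0.0734 CPM against 0.459 and 0.313 CPM. Both miR-6133-5p libraries lay above both miControl libraries, at a level under 1 CPM throughout. *MFAP2* passed the filter on low counts only through the miR-6133-5p libraries, so it was tested because it was high there. Its p-values and lack of overlap are therefore no support for a rise. The fitted log2 fold change of 3.26 had the widest SE of the members, 0.845, and its adjusted p was 0.0105 (edgeR), above the threshold. Alternatives put that adjusted p between 0.000166 and 0.117, and 5 of them called the gene higher at 0.01. With only replicate 1 of miControl, at 0 counts, the fitted value depends on the prior count and bounds nothing. Of the exon bases of *MFAP2*, 13.6% are shared with a gene on the opposite strand, and the strand setting of the counting is not given in the sources used here.

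*MFAP5* (ENSG00000197614, chr12:8789942-8815484, minus strand) encodes the related glycoprotein MAGP-2. It had 0 counts in all 4 libraries, with the same limits as *ELN*. The next protein-coding gene, *RIMKLB*, had 1639 and 1729 counts with miControl and 2059 and 3269 counts with miR-6133-5p.

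**Figure D3:**
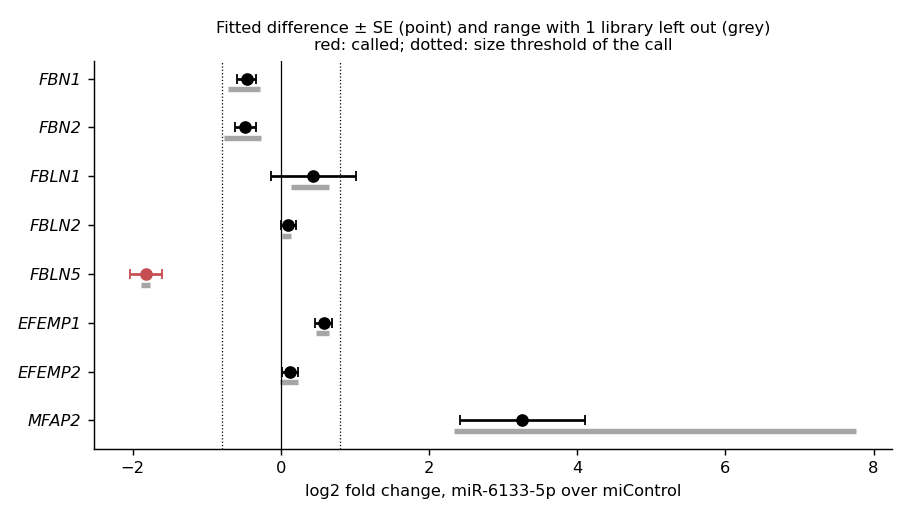
Log2 fold change of miR-6133-5p over miControl for the 8 members tested, with points and bars for the fitted value ± SE, grey lines for the range with 1 library left out and dotted lines at the size of 0.8 that a call needs. *FBLN5*, in red, lies at -1.82 with a narrow range, the grey lines of *FBN1* and *FBN2* end short of -0.8, and that of *MFAP2* runs from 2.34 to 7.77.

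Levels of different genes were compared per kb of reference transcript. With miControl the order was *FBN1*, at 56.4 and 57.9 CPM per kb, then *FBLN2*, *EFEMP2*, *FBN2*, *EFEMP1* and *FBLN5*, and each neighbour in that order was separated from the next in both libraries. *FBLN1* and *MFAP2* came last and were not separated from each other. With miR-6133-5p, *FBLN2* at 46.9 and 49.8 CPM per kb and *FBN1* at 35.3 and 47.7 CPM per kb overlapped at the top. *EFEMP1*, at 19.1 and 16.9 CPM per kb, was above *FBN2*, at 9.62 and 13.6 CPM per kb, the reverse of their order with miControl, where *EFEMP1* had 12.5 and 11.6 and *FBN2* had 15.98 and 16.5 CPM per kb. *FBLN5* and *MFAP2* were not separated, at 0.454 and 0.419 against 0.439 and 0.299 CPM per kb.

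The 10 members summed to 160 and 154 CPM per kb with miControl and to 140 and 155 CPM per kb with miR-6133-5p, so the sums overlapped between the groups. *FBN1* made up 35.3% and 37.6% of that sum with miControl and 25.3% and 30.8% with miR-6133-5p. *EFEMP1* made up 7.80% and 7.55%, then 13.6% and 10.9%. *FBLN5* was a minor part in both groups, 0.959% and 0.998% with miControl and 0.325% and 0.270% with miR-6133-5p. Among 17285 tested genes ranked by mean CPM per kb, *FBN1* stood at the percentile 93.2 with miControl and 90.9 with miR-6133-5p, *EFEMP1* at 70.7 and 78.7, and *FBLN5* at 37.4 and 20.4.

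**Figure D4:**
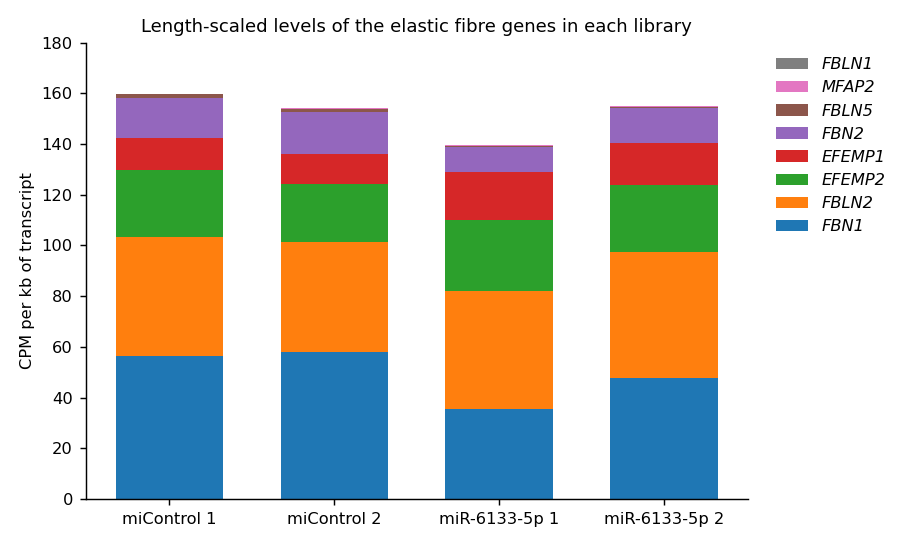
Stacked bars of the levels of the elastic fibre genes in each library, in CPM per kb of reference transcript from 0, with 1 colour per gene. The bar of replicate 1 of miR-6133-5p is the shortest, at 140 CPM per kb, and the *EFEMP1* part is taller in both miR-6133-5p bars than in the miControl bars.

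Other genes of the elastic fibre pathway were described from a list of 48, drawn up with earlier results of these data known. The shares below therefore describe the list and do not test the pathway. Of its genes, 40 were tested. Of these, 10 fell and 2 rose by the same call, where 5.54% and 2.90% of all tested genes did. Among those that fell, *LOX*, *LOXL2*, *LTBP2*, *ITGAV*, *ITGB3* and *ITGA5* were already in the study's lists of downregulated genes. The median log2 fold change of the 40 was -0.38, beside 0.03 over all tested genes. With library totals alone, 7 fell and 2 rose, and the median was -0.22, beside 0.19 over all tested genes. The groups did not overlap for 31, of which 25 were lower and 6 higher, where 64.4% of all tested genes did not overlap. Cross-linking enzymes, integrins and a convertase account for 7 of the 10 that fell.

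The lysyl oxidases cross-link elastin and collagen. All 5 were tested and 3 fell: *LOX* by 1.23, *LOXL2* by 1.04 and *LOXL4* by 1.35 on the log2 scale. *LOXL2* went from 659 and 606 CPM to 298 and 316 CPM, with no overlap (SE 0.105, adjusted p = 8.51e-06, edgeR). *LOXL4* was scarce, at 1.85 and 1.28 CPM against 0.550 and 0.665 CPM, and lost its call without either miControl library (adjusted p = 0.12 and 0.0128, edgeR) and with library totals alone (0.0119). *LOXL1*, the family member that binds fibulin-5, stood at 34.2 and 29.98 CPM against 32.9 and 27.0 CPM, and its groups overlapped (log2 fold change -0.10, SE 0.124, adjusted p = 0.6, edgeR). *LOXL3* was at 1.71 and 1.67 CPM against 0.948 and 1.11 CPM (log2 fold change -0.71, adjusted p = 0.0658, edgeR).

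The latent TGF-β binding proteins tether latent TGF-β to microfibrils or, for *LTBP2*, bind fibrillin-1 and fibulin-5 without it. All 4 were tested, and 1 fell and 1 rose. *LTBP3* rose from 25.7 and 22.9 CPM to 44.8 and 53.0 CPM (log2 fold change 1.01, SE 0.119, adjusted p = 3.14e-05, edgeR), with a range of 0.87 to 1.11 when 1 library was left out. *LTBP2* fell from 68.3 and 65.5 CPM to 32.0 and 39.4 CPM, close to the size threshold at -0.90, and was short of it at -0.78 without replicate 1 of miR-6133-5p, at -0.79 with the length term and at -0.74 with library totals alone. Of the 7 tested microfibril-associated ADAMTS and ADAMTSL genes, 1 fell: *THSD4*, which encodes a fibrillin-1-binding ADAMTS-like protein, went from 35.7 and 36.9 CPM to 15.0 and 17.3 CPM (log2 fold change -1.17, SE 0.116, adjusted p = 7.54e-06, edgeR). Of the 6 other members of the fibulin, microfibril and emilin families tested, 0 were called, and 0 were called by DESeq2. An unadjusted p below 0.05 (edgeR) was found for 2, a level for which the share of all tested genes was not computed.

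*FURIN*, the proprotein convertase that trims fibrillin precursors so that they can assemble, fell from 230 and 210 CPM to 72.5 and 78.2 CPM. Its log2 fold change was -1.55 (SE 0.108, adjusted p = 4.27e-07, edgeR), with a range of -1.64 to -1.49 when 1 library was left out. Among 3 proteoglycans tested, *VCAN*, the large proteoglycan versican that binds fibrillin-1 and fibulins, fell from 641 and 842 CPM to 226 and 312 CPM (log2 fold change -1.46, SE 0.159, adjusted p = 1.65e-05, edgeR).

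The list holds 8 integrin genes, of which 7 were tested and 3 fell. *ITGAV* and *ITGB3*, whose products pair into a receptor for fibrillin-1 and fibulin-5, had log2 fold changes of -0.87 and -1.53 (SE 0.109 and 0.156). Of the exon bases of *ITGB3*, 33.2% are shared with another gene on the same strand, and for *ITGB6* the share is 16.7%. *ITGAV* was at -0.796 without replicate 1 of miR-6133-5p, at -0.77 with the length term and at -0.71 with library totals alone, short of the call. *ITGA5* fell by 3.13 and its partner *ITGB1* was at -0.52 with an adjusted p of 0.00143 (edgeR), which is short of the size threshold. *ITGB6* was at 1.87 and 1.98 CPM against 0.642 and 1.15 CPM (log2 fold change -1.08, adjusted p = 0.018, edgeR), and at -1.60 without replicate 2 of miR-6133-5p, where it was called lower. *ITGB5* was at -0.15 and *ITGB8* at -0.21 (adjusted p = 0.286 and 0.475, edgeR), while *ITGA8* had 3 counts in 1 miControl library and none elsewhere.

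Of 9 elastin-degrading proteases, 6 were tested and 1 rose. *MMP9*, a gelatinase that also cuts elastin, had 18 and 17 counts with miControl and 72 and 156 with miR-6133-5p. The levels were 0.366 and 0.312 CPM against 1.10 and 1.57 CPM (log2 fold change 1.99, SE 0.367, adjusted p = 0.00116, edgeR). Without either miControl library the adjusted p was 0.0196 and 0.0195 (edgeR), and 18.4% of its exon bases are shared with an antisense gene.

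**Figure D5:**
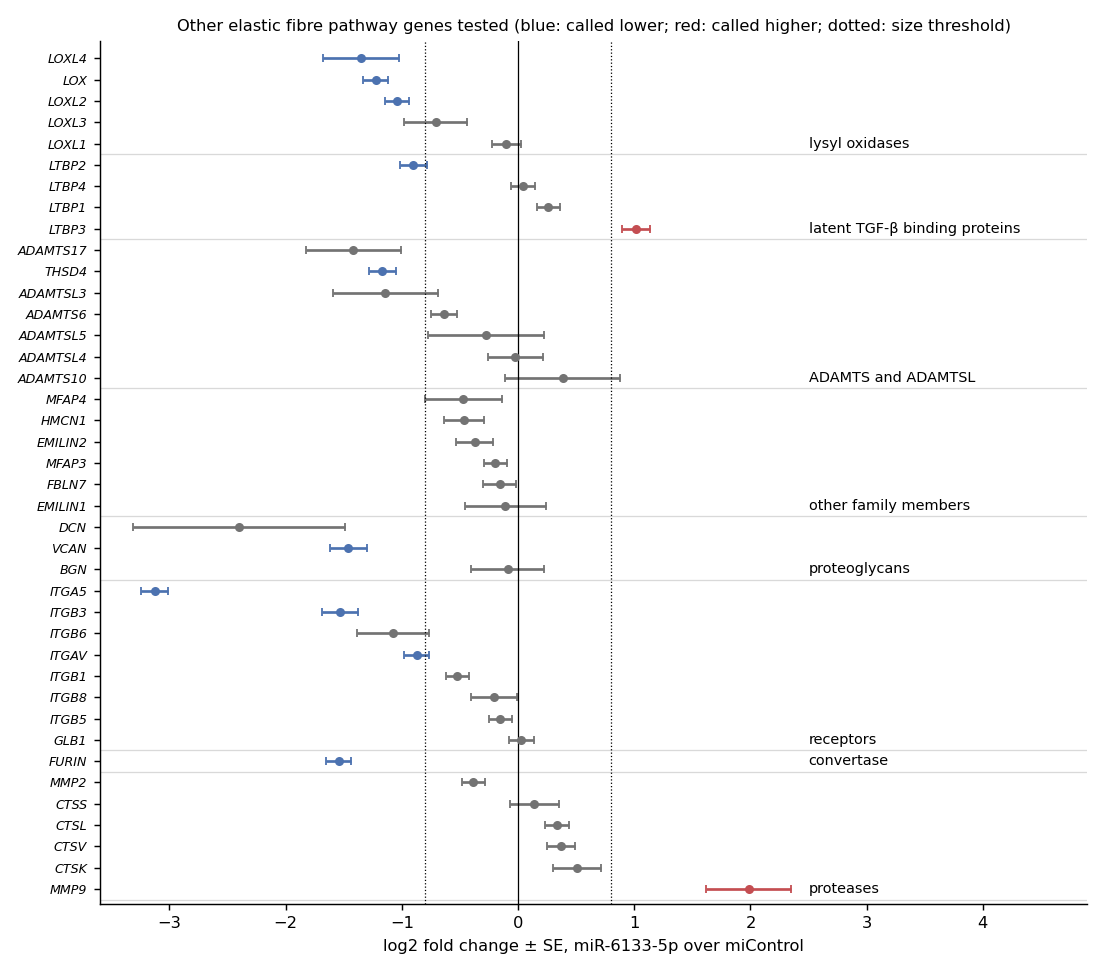
Log2 fold change ± SE of miR-6133-5p over miControl for the 40 other pathway genes tested, grouped by role, with blue for genes called lower, red for genes called higher, grey for the rest and dotted lines at the size of 0.8 that a call needs. All 5 lysyl oxidases lie left of 0, 3 of them past the call, and *LTBP3* and *MMP9* are the genes in red.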

How the data were processed

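RNA was extracted with ISOGEN, and libraries were made with a TruSeq Stranded mRNA kit and sequenced as read pairs. The authors aligned reads to GRCh37 through GeneData Profiler with STAR 2.5.3a and counted them on Ensembl genes with featureCounts of Subread 1.6.4, as the submitters' processing notes give, and deposited whole-number counts without normalization. The mapping summary deposited by the authors gave the fraction of input pairs mapped uniquely, 96.5% to 96.8%. Counts per uniquely mapped pair were 1.68 to 1.70, so mates were counted singly. The annotation release and strand setting are not given in the sources used here. Columns of the authors' own comparisons were not used.

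Ensembl identifiers were matched to symbols through the GENCODE annotation lifted to GRCh37, which also gave positions, reference transcript lengths and exon overlaps and may differ from the annotation behind the counts. The counts were filtered with filterByExpr, scaled with TMM and tested with the quasi-likelihood F test of edgeR 4.0.16 (R 4.3.3, limma 3.58.1), two-sided, over all 18252 genes with Benjamini-Hochberg adjustment, without a block. SEs were derived from the F statistic. A call needed an adjusted p below 0.01 and a log2 fold change beyond 0.8, as in the study's methods. The fit was tested on simulated data. The members and lists were chosen with earlier results of these data known. All 10 members are named, and of the pathway list the called genes, the lysyl oxidases and the integrins. Alternatives were RLE size factors, library totals, DESeq2 1.42.0, other filters, a replicate block, thinning, an adjusted p of 0.05, glmTreat, leaving out each library and, added after seeing the data, a length term. Replicate numbers were not taken to pair libraries, since deviations of same-numbered libraries had a Pearson's r of 0.05. Tables and plots used Python 3.11.15 with numpy 2.4.6, scipy 1.17.1, pandas 2.3.3 and matplotlib 3.10.9.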

Additional observations from a re-analysis of the deposited data

How the results depend on the processing

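*FBLN5* was called lower in each alternative, so the number of members called lower was 1 throughout. The number called higher was 1, *MFAP2*, with library totals alone, with no filter on low counts, with the replicate block, at an adjusted p of 0.05 and with counts thinned to the smallest library, and it ranged from 0 to 1 with 1 library left out. Under the main filter *MFAP2* was tested only through its miR-6133-5p libraries, so its calls there are no support for a rise. The replicate block changed no other call of a member. In the pathway list it called 12 genes lower, the added ones being *ITGB6* (adjusted p = 0.0012) and *ADAMTS17* (adjusted p = 0.00756, edgeR), the latter named after its values were seen. The median log2 fold change of the members was 0.28 with library totals alone and -0.19 with at least 10 counts in every library, where 6 members are left. With 1 library left out it ranged from 0.0061 to 0.18. *EFEMP2* changed sign without replicate 2 of miControl, to -0.0080, and its values with 1 library left out reached up to 0.23. The log2 ratio of *FBN2* to *FBN1* ranged from -0.06 to 0.01 with 1 library left out. With glmTreat, which tests against the size of 0.8 itself, 5 pathway genes were called lower and 0 higher. The shares of all tested genes called with the replicate block and with glmTreat are not given here. These pathway counts therefore have no background to be read against. Over all pairs of an alternative with 1 of the 8 tested members or 12 called pathway genes, direction and side of the threshold were kept in 253. That count includes *FBLN1* and *MFAP2* under DESeq2, which had no adjusted p and so no side of the threshold. It also includes the adjusted p of 0.05, which uses the main fit and could not lose a call. A call was gained in 6, all of *MFAP2*, and lost in 18, from 7 genes (*LOXL2*, *LOXL4*, *LTBP2*, *LTBP3*, *THSD4*, *ITGAV* and *MMP9*), and the sign changed in 1. Leaving out a library assumes that the lone library varies like the other group. The cause of these changes was not tested. The ratio of *MFAP5* to *MFAP2* was not run, as *MFAP5* had 0 counts, and seed matches and protein motifs were not run, as their sequences were not used here. With 2 libraries a group, levels under the floor of 3 counts could not be told from 0.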
